A study of Mus musculus with 8 samples.

Results

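The DNA methyltransferases and methyl-CpG binding domain proteins write and read cytosine methylation, the mark that cells place on cytosines followed by guanine. The group described here holds 7 genes, Dnmt1, Dnmt3a, Dnmt3b, Mbd1, Mbd2, Mbd3 and Mbd4. Probes with 1 symbol named 15094 genes in all, after symbols were updated by Entrez number. The 7 genes were found by symbol in the platform's probe annotation. They are represented by 9 of the 21582 probes, 2 each for Dnmt1 and Mbd2 and 1 for each other gene. All 9 had values on enough arrays to be tested. The arrays measured RNA from mouse cortical neurospheres, floating balls of neural stem cells and progenitors, started from embryos at gestational day 12.5. Exposed cultures had 320 mg/dl ethanol in their growth medium over 5 days. The medium held bFGF (a fibroblast growth factor) at 20 ng/ml, 20 ng/ml epidermal growth factor (EGF) and 0.15 ng/ml leukaemia inhibitory factor (LIF). Control cultures grew in the same medium with no ethanol. Both were then differentiated by removing EGF and LIF, the exposed ones for 3 days without ethanol, and bFGF was kept. Exposed and control RNA were hybridised together on 8 two-colour arrays, with exposed RNA in Cy5 on replicates 5 to 8 and in Cy3 on replicates 1 to 4.

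Dnmt1 copies existing methylation onto the daughter strand after DNA replication, and it is known to be abundant in dividing cells. Dnmt3a and Dnmt3b place methylation at new sites during development. Mbd1 and Mbd2 bind methylated DNA and recruit repressors, Mbd3 is a core subunit of the NuRD deacetylase complex that in mammals binds methylated DNA poorly, and Mbd4 is a DNA glycosylase that removes the thymine left when a methylated cytosine loses its amino group. In the developing brain this machinery is known for holding the programmes of progenitors, neurons and glia apart as cells mature.

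Each value is the log2 of the ratio of one channel to the other, less the median of its array. Neither the labels nor the file state what was divided by what, conditions or dyes. Each probe was therefore described by 2 numbers. One, called the shared part, averages the means of the 2 orientations. If every ratio has the same condition on top, any effect of ethanol lies there. The other, called the turning part, is the mean with ethanol in Cy5 minus the mean with ethanol in Cy3, divided by 2. If every ratio has the same dye on top, any effect of ethanol lies in that part. A sign is therefore that of the deposited ratio and gives no direction for ethanol. Both parts were fitted over the 15345 probes that had a ratio on 3 or more arrays per orientation, with Benjamini-Hochberg adjustment over all of them and a threshold of 0.05. Nothing says that the arrays came from separate cultures, so p-values measure the spread between arrays, which may be technical.

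A ratio could be computed for 75.4% to 87.1% of the probes per array. With limma 0 probes passed in the shared part (0% of those tested, 13.9% at an unadjusted p under 0.05) and 239 in the turning part (1.56%, or 13.8% unadjusted). The ratios hold no levels, so that cell identity could be checked only by how many arrays gave a ratio. All 8 neural progenitor markers on the array had a ratio on 8 arrays, as did 5 of 7 neuronal, 5 of 7 astrocyte and 5 of 6 oligodendrocyte lineage markers. Of 6 microglial markers 1 did, and Aif1 and Cx3cr1 had a ratio on fewer than 6 arrays, as did the neuronal marker Stmn2 and the oligodendrocyte marker Mog. The other cell types listed were endothelial, with 3 of 5 markers on 8 arrays, and erythroid, with 2 of 2. Of all probes 48.6% had a ratio on 8 arrays.

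No member probe passed in either part. In the shared part 5 of the 9 probes were positive and 4 negative, and their median log2 value was 0.09, against -0.06 over all probes tested. The furthest from 0 on the positive side were the first Dnmt1 probe at 0.94 ± 0.35 (SE of the limma fit, n = 8 arrays, like the SEs that follow unless another n is given) and Mbd3 at 0.65 ± 0.29. On the negative side they were Dnmt3b at -1.03 ± 0.73 and Dnmt3a at -0.91 ± 0.63. Adjusted p ran from 0.292 to 0.963. Unadjusted, 2 of the 9 (22.2%) had a p under 0.05, the first Dnmt1 probe and Mbd3, both positive, against 13.9% of all probes in either direction. With only 9 probes this count lay near that share. In the turning part 3 were positive and 6 negative, with a median of -0.14 against 0.11 over all probes, adjusted p ran from 0.631 to 0.962, and 0 of 9 had an unadjusted p under 0.05. The values of the orientations overlapped for 9 of 9 probes. Of all probes tested 10.9% did not overlap, and with only 9 probes the members lay near that share.

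**Figure D1:**
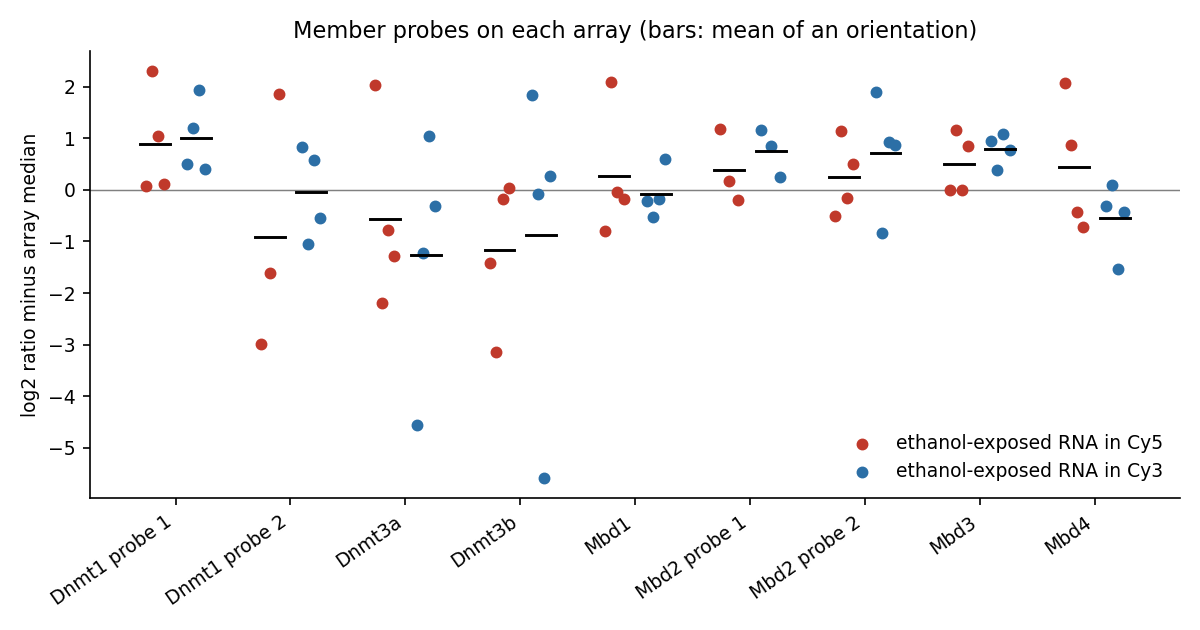
Log2 ratio minus the array median (vertical axis) of the 9 member probes on each array, with ethanol-exposed RNA in Cy5 in red on the left and in Cy3 in blue on the right of each pair. Points are arrays and bars the mean of an orientation. The first Dnmt1 probe lies above 0 on all 8 arrays, Mbd3 has the narrowest spread of the probes with 8 values, and single low values of Dnmt3a and Dnmt3b reach -4.56 and -5.57.

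Promoter windows from RefSeq are shown for Dnmt1 and Mbd3, because these genes gave the only probes with an unadjusted p under 0.05 in the shared part. RefSeq windows (assembly GRCm38.p6, 250 bases before and 50 after an annotated start) were matched for 5 of the 7 genes. Capitals mark CpG, the dinucleotide that these proteins methylate or read. The Dnmt1 window is that of the middle of 3 annotated starts, at chr9:20952930-20953229 on the minus strand, and the Mbd3 window lies at chr10:80399482-80399781 on the minus strand.
Dnmt1: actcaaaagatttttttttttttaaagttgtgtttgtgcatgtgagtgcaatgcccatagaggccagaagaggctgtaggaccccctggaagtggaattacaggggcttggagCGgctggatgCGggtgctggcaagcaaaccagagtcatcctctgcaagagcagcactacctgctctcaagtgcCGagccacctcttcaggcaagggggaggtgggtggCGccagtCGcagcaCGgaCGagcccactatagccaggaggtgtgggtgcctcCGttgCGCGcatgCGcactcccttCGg
Mbd3: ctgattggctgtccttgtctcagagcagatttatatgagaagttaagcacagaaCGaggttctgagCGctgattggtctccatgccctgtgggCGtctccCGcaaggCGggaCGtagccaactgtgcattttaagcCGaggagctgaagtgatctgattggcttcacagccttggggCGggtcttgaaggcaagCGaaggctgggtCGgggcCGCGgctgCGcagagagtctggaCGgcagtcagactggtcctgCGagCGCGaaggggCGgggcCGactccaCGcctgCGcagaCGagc
The Dnmt1 window holds 12 CpG and the Mbd3 window 22, against a median of 7 over all 32851 windows. The window of another Dnmt1 start, chr9:20952574-20952873, lies downstream of the one shown and holds 33, and that of the remaining start, chr9:20959839-20960138, holds 2. The Dnmt3b window holds 30, that of Mbd4 25, and the 3 of Dnmt3a 46, 47 and 18. The letters TTTCGCGC or TTTGGCGC, which the cell-cycle factor E2F is known to bind, occurred on either strand in 0.813% of all windows. They occurred at 2 places in the downstream Dnmt1 window and in none of the other 8 windows of these genes. The GC box letters GGGCGG occurred on either strand in 35.7% of all windows and at 2 places in the Mbd3 window. They occurred at 6, 7 and 2 places in the Dnmt3a windows, 4 in that of Dnmt3b and 1 in that of Mbd4. The downstream Dnmt1 window held 2, and the Dnmt1 window shown and that of the remaining start held none. No E2F and GC box match overlapped in these windows. These matches describe letters only.

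Dnmt1, the maintenance methyltransferase, lay on the positive side on every array by its first probe. With ethanol in Cy5 that probe read 0.07, 2.30, 1.04 and 0.10 on replicates 5 to 8, and with ethanol in Cy3 it read 0.49, 1.20, 1.93 and 0.40 on replicates 1 to 4. Replicates 6 and 3 were the highest, 1 in each orientation, and the orientations overlapped. Of all probes tested 1.82% were positive on every array with a value. The shared part of 0.94 corresponds to a ratio of 1.92 (95% interval 1.11 to 3.32; limma unadjusted p = 0.0236, adjusted p = 0.292). The turning part was -0.06 ± 0.35 (adjusted p = 0.962), and its interval ran from -0.85 to 0.72.

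The other Dnmt1 probe did not follow the first. It read -2.98, -1.62 and 1.86 on replicates 5, 7 and 8 with ethanol in Cy5, where replicate 6 had no computable ratio. With ethanol in Cy3 it read 0.83, -1.04, 0.58 and -0.54 on replicates 1 to 4. Its values changed sign within each orientation, and it had the sign of the first probe on 3 of 7 arrays. Its shared part was -0.48 ± 0.57 (n = 7 arrays, adjusted p = 0.733) and its turning part -0.43 ± 0.57 (adjusted p = 0.792). Without replicates 3, 4 and 8, whose array codes end in r, they were -1.20 and -1.10. The shared part was -0.31 without replicate 2, and the turning part was -0.29 without replicate 1. The first probe exceeded the second by 1.16 ± 1.72 on average (SD, n = 7 arrays; exact two-sided sign-flip test, p = 0.125, where 0.0156 is the smallest possible). The positive side of Dnmt1 thus rests on 1 of its 2 probes.

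The median of the cell division markers was highest on the arrays where the first Dnmt1 probe was highest. Of the 15 proliferation markers tested, 9 were positive in the shared part, with a median of 0.35, and none passed. Unadjusted, 7 of the 15 had a p under 0.05, against 13.9% of all probes in either direction. All 7 were positive (Mcm2, Mcm3, Mcm5, Ccna2, Cdk1, Birc5 and Aurka). Bub1 (-0.82), Top2a (-0.59), Aurkb (-0.42), Mki67 (-0.39), Mcm4 (-0.20) and Mcm7 (-0.18, n = 7 arrays) were negative in the shared part. None of these negative markers had an unadjusted p under 0.05. The median of the proliferation markers per array was -0.10, 1.81, 0.78 and 0.45 on replicates 5 to 8 with ethanol in Cy5. With ethanol in Cy3 it was 0.32, 0.57, 2.78 and -0.43 on replicates 1 to 4. Replicates 2, 3, 6 and 7 held the 4 highest values both of the first Dnmt1 probe and of this median. Mbd3 was also highest on replicates 6 and 3, at 1.16 and 1.09. Replicate 6 held the highest array median of neural progenitor (1.88) and oligodendrocyte lineage markers (1.39) too, which read 0.61 and -1.31 on replicate 3. Microglial markers were highest on replicate 1 (1.14). The part of proliferation in the Dnmt1 values was not tested. In RNA from whole cultures, fewer cells of a type and less RNA per cell cannot be told apart. Astrocyte markers were negative in the shared part for 7 of 7 genes (median -0.87, none passing). Their median per array ran from -1.30 to -0.04 with ethanol in Cy5 and from -1.43 to -0.22 with ethanol in Cy3. Neural progenitor markers were positive for 6 of 8 (median 0.65, none passing), with array medians from 0.02 to 1.88 and from -0.34 to 0.95. Shared medians were -0.05 for neuronal, -0.48 for oligodendrocyte lineage and -0.19 for microglial markers. For endothelial and erythroid markers they were -0.14 and -0.56, and none of these lists held a passing gene. Turning medians were 0.54 for neuronal, 0.63 for microglial, 0.35 for oligodendrocyte lineage and 0.34 for erythroid markers, against 0.11 over all probes. For astrocyte, neural progenitor, proliferation and endothelial markers they were -0.29, -0.07, -0.07 and -0.03. No gene of these lists passed in the turning part. Of all 15345 probes tested, 8271 were negative in the shared part.

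**Figure D2:**
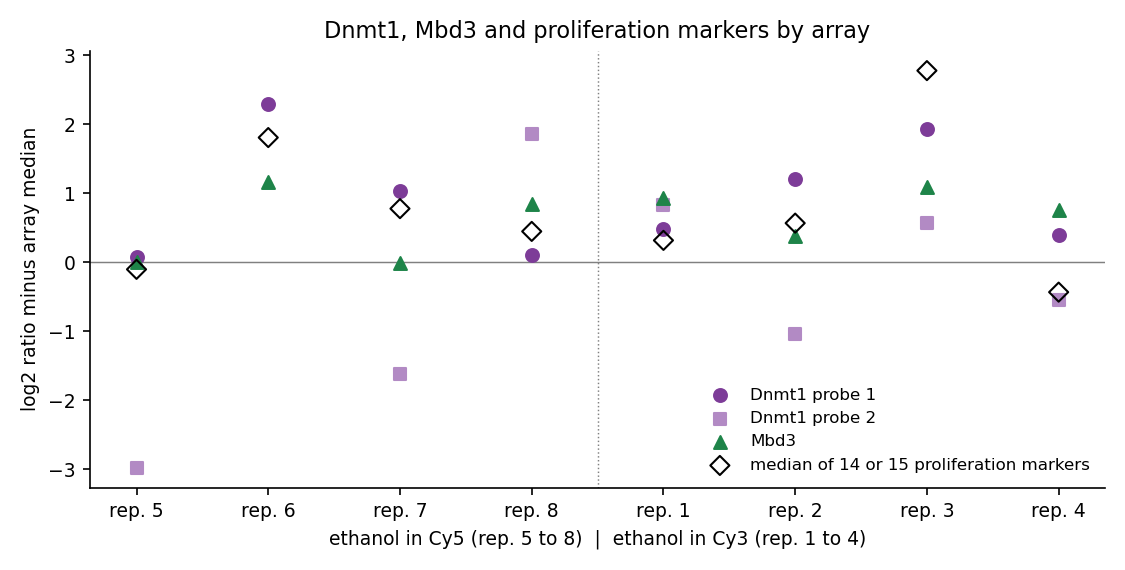
Log2 ratio minus the array median (vertical axis) of both Dnmt1 probes, Mbd3 and the median of the proliferation markers on each array, with replicates 5 to 8 (ethanol in Cy5) left of the dotted line and replicates 1 to 4 (ethanol in Cy3) right of it. The first Dnmt1 probe and the proliferation median are both high on replicates 6 and 3, at 2.30 and 1.81 and at 1.93 and 2.78, while the second Dnmt1 probe runs from -2.98 to 1.86.

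Dnmt3a, a de novo methyltransferase, varied widely and was mostly negative. It read 2.03, -2.20, -0.79 and -1.28 on replicates 5 to 8 with ethanol in Cy5. It read -4.56, -1.22, 1.05 and -0.32 on replicates 1 to 4 with ethanol in Cy3. Replicates 5 and 3 were positive, 1 in each orientation, and the other 6 arrays negative. Its shared part of -0.91 ± 0.63 (adjusted p = 0.534) leaned on replicate 1, without which it was -0.36. The turning part was 0.35 ± 0.63 (adjusted p = 0.857), and -0.20 without replicate 1 and -0.08 without replicate 5. Without replicates 3, 4 and 8 the parts were -1.61 and 1.29.

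Dnmt3b, the other de novo enzyme, had the widest spread of the 9 probes. With ethanol in Cy5 it read -1.41, -3.15, -0.17 and 0.04 on replicates 5 to 8. With ethanol in Cy3 it read 1.84, -0.08, -5.57 and 0.27 on replicates 1 to 4. Replicates 3 and 6, where the first Dnmt1 probe was highest, were the lowest arrays for Dnmt3b, and its residual SD of 2.51 was larger than that of 95.8% of all probes tested. Its shared part was -1.03 ± 0.73 (adjusted p = 0.543), and -0.25 without replicate 3. The turning part was -0.14 ± 0.73 (adjusted p = 0.959). It was -0.93 without replicate 3, 0.31 without replicate 1, 0.19 without replicate 6 and 0.05 without replicate 4. Without replicates 3, 4 and 8 the parts were -0.35 and -1.23.

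The 3 methyltransferases did not share a pattern, with Dnmt1 taken by its first probe. The first Dnmt1 probe read above Dnmt3a on 7 of 8 arrays and above Dnmt3b on 7 of 8. Dnmt3a and Dnmt3b had opposite signs on 5 of 8 arrays. Their difference, Dnmt3a minus Dnmt3b, ran from -6.40 on replicate 1 to 6.63 on replicate 3. Probes of the same gene also disagreed, with the same sign on 3 of 7 arrays for Dnmt1 and 3 of 6 for Mbd2. A difference between genes therefore cannot be told apart from one between probes. In the shared part the 95% intervals allow ratios from 0.200 to 1.41 for Dnmt3a and from 0.159 to 1.51 for Dnmt3b. Ratios within these bounds could not be told apart from 1 at this precision.

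Mbd3, the NuRD subunit, was the most precisely measured member. With ethanol in Cy5 it read 0.001, 1.16, -0.002 and 0.85 on replicates 5 to 8. It read 0.94, 0.39, 1.09 and 0.77 on replicates 1 to 4 with ethanol in Cy3. No array was clearly negative, replicates 5 and 7 lay at 0, and the orientations overlapped. Its residual SD was 0.47, and only 5.6% of all probes tested had a smaller one. The shared part of 0.65 corresponds to a ratio of 1.57 (95% interval 1.01 to 2.44; limma unadjusted p = 0.0468, adjusted p = 0.351). The turning part was -0.15 ± 0.29 (adjusted p = 0.873, interval -0.78 to 0.49).

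Mbd2, which brings NuRD to methylated DNA, was positive on most arrays by both probes. The first probe read 1.17, 0.17 and -0.19 on replicates 5, 6 and 8 with ethanol in Cy5, and 1.16, 0.85 and 0.25 on replicates 2 to 4 with ethanol in Cy3. Replicates 7 and 1 had no computable ratio. The second probe read -0.51, 1.14, -0.16 and 0.50 on replicates 5 to 8 with ethanol in Cy5. With ethanol in Cy3 it read 1.90, -0.84, 0.93 and 0.86 on replicates 1 to 4. Their shared parts were close, at 0.57 ± 0.37 (n = 6 arrays, adjusted p = 0.522) and 0.48 ± 0.37 (adjusted p = 0.573), yet array by array the probes had the same sign on 3 of 6. The second probe's shared part was 0.28 without replicate 1 and 0.74 without replicate 2. The mean difference between them was 0.22 ± 1.29 (SD, n = 6 arrays; exact two-sided sign-flip test, p = 0.656, where 0.0312 is the smallest possible). The turning parts were -0.18 ± 0.37 (n = 6 arrays) and -0.23 ± 0.37, with adjusted p of 0.878 and 0.829, and the second probe's was -0.04 without replicate 1 and -0.49 without replicate 2.

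Mbd1, a reader of methylated promoters, stayed near its array medians except on replicate 6. It read -0.80, 2.08, -0.04 and -0.18 on replicates 5 to 8 with ethanol in Cy5. It read -0.22, -0.53, -0.19 and 0.59 on replicates 1 to 4 with ethanol in Cy3. Replicates 6 and 4 were positive and the other 6 arrays negative. Its shared part was 0.09 ± 0.36 (adjusted p = 0.933), and -0.22 without replicate 6. The turning part was 0.18 ± 0.36 (adjusted p = 0.880), and -0.13 without replicate 6.

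Mbd4, the repair glycosylase, had the largest turning part of the 9 probes. With ethanol in Cy5 it read 2.07, 0.87, -0.44 and -0.72 on replicates 5 to 8. With ethanol in Cy3 it read -0.31, 0.10, -1.53 and -0.43 on replicates 1 to 4. Replicates 5 and 6 stood above all arrays of the other orientation and replicates 7 and 8 lay within its range. The turning part was 0.50 ± 0.38 (adjusted p = 0.631, interval -0.35 to 1.34), and 0.23 without replicate 5. The shared part was -0.05 ± 0.38 (adjusted p = 0.963).

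**Figure D3:**
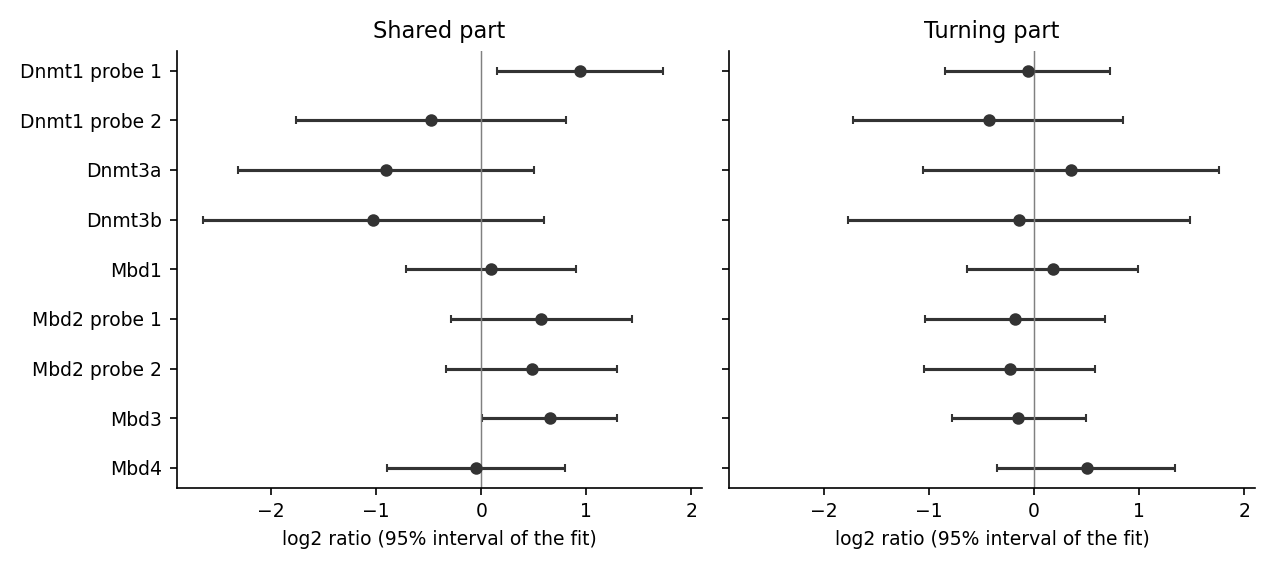
Shared part (left) and turning part (right) of the 9 member probes on the log2 scale, with 95% intervals of the limma fit. Only the intervals of the first Dnmt1 probe (0.15 to 1.73) and Mbd3 (0.01 to 1.29) in the shared part leave out 0, before any adjustment, and all 9 in the turning part include it.

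Genes that work with these proteins were described by 4 lists, of which 44 of 59 genes were on the array and 36 were tested, 1 probe a gene. None of the 36 passed in either part. Unadjusted, 4 (11.1%) had a p under 0.05 in the shared part, all positive, against 13.9% of all probes, and 4 (11.1%) in the turning part, against 13.8%. In the shared part 24 of 36 were positive, with a median of 0.21 against -0.06 over all probes. In the turning part 23 were positive, with a median of 0.10 against 0.11. By list, in the order described below, the turning medians were 0.23, 0.34, 0.08 and 0.10.

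Other methylation readers and cofactors had 7 tested genes with a shared median of 0.07. The largest in the shared part were Dmap1, named as a partner of Dnmt1, at 0.93 ± 0.33 (adjusted p = 0.271), and Dnmt3l, the inactive relative that stimulates the de novo enzymes, at 0.83 ± 0.65 (n = 7 arrays). In the turning part Dnmt3l read -0.92 ± 0.65 (n = 7 arrays) and Trdmt1, a transfer RNA methyltransferase, 0.90 ± 0.39 (adjusted p = 0.340). Uhrf1, which guides Dnmt1 to newly copied DNA, had a ratio on 4 arrays and the methyl-CpG reader Zbtb33 on 3, and neither was tested.

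Demethylation and base excision genes had 8 tested members with a shared median of 0.40 and 6 positive. Tdg, a glycosylase that like Mbd4 excises thymine from mismatches with guanine, read 1.00 ± 0.39 in the shared part (adjusted p = 0.307), and the endonuclease Apex1 0.79 ± 0.45. In the turning part the largest were Gadd45b at 1.33 ± 0.79 and Tet1, which oxidises methylated cytosine, at -1.06 ± 0.51 (n = 7 arrays). Neither passed, with adjusted p of 0.508 and 0.401.

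NuRD and other partners had 13 tested members with a shared median of 0.32 and 10 positive. The adaptor Fadd, a known partner of Mbd4 outside NuRD, read 0.94 ± 0.33 (adjusted p = 0.262) and the deacetylase Hdac1 0.89 ± 0.42 (n = 7 arrays). Within NuRD, Hdac2 read -0.79 ± 0.42, the histone-binding subunits Rbbp4 and Rbbp7 0.32 ± 0.28 and 0.58 ± 0.34, and the scaffold genes Mta1, Mta2 and Mta3 0.19 ± 0.29, 0.21 ± 0.26 and -0.39 ± 0.33. The NuRD genes Chd3 and Gatad2a read 0.38 ± 0.72 (n = 7 arrays) and 0.52 ± 0.50. Mbd3 at 0.65 lay above each of these NuRD genes but Hdac1, and none of the differences was tested. The largest turning parts were 0.90 ± 0.34 for Rbbp7 (adjusted p = 0.268) and -0.32 ± 0.33 for Mta3.

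Methyl donor supply had 8 tested members with a shared median of -0.25 and 3 positive. In the turning part 6 were positive, with a median of 0.10. The list's median per array ran from 0.15 to 0.86 with ethanol in Cy5 and from -0.64 to -0.23 with ethanol in Cy3. Array medians of the other related lists overlapped between orientations, and this difference was not tested. Ahcy, which clears the methyltransferase inhibitor S-adenosylhomocysteine, read 0.94 ± 0.29 and was positive on 8 of 8 arrays (adjusted p = 0.232). Bhmt, which remethylates homocysteine, read -0.97 ± 0.48. In the turning part Tyms, the thymidylate synthase, read 1.42 ± 0.35 (adjusted p = 0.0864) and Mat1a, an S-adenosylmethionine synthetase, 1.05 ± 0.35 (adjusted p = 0.203). The folate enzymes Mthfd1 and Mthfd2 and the methyltransferase Gnmt had ratios on 6 arrays, but on fewer than 3 of 1 orientation, and were not tested. Shmt1, Cbs and Folr1 had ratios on 1, 3 and 5 arrays and were not tested either.

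**Figure D4:**
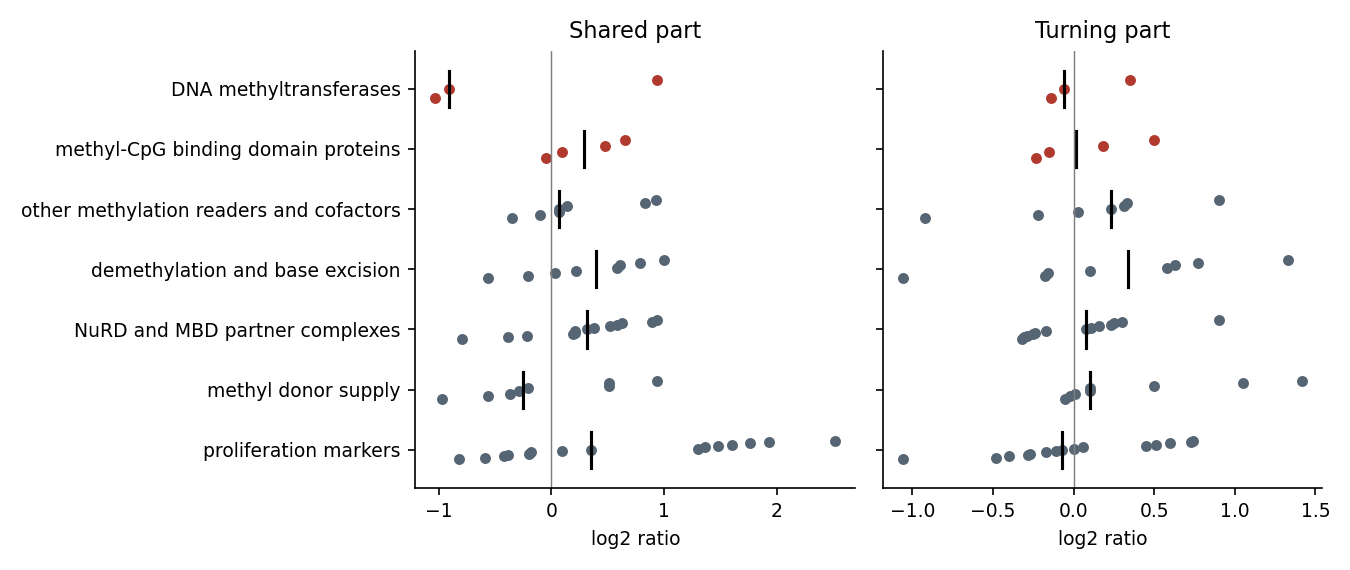
Shared part (left) and turning part (right) on the log2 scale of each tested gene, 1 probe a gene, in the member groups (red) and in related lists and proliferation markers (grey). Vertical bars are list medians. The shared medians of the lists lie between -0.91 for the 3 methyltransferases and 0.40 for demethylation and base excision, and the proliferation markers reach 2.52, at Aurka.

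Each member's pattern over the 8 centred arrays was set against 8679 probes of other named genes with 8 values. The closest to the first Dnmt1 probe were Wrnip1 (Pearson r = 0.986), Cdca3 (r = 0.980) and Ldha (r = 0.964). For Dnmt3a they were Ormdl2, Phka1 and Ndrg1 (r = 0.958, 0.921 and 0.907), and for Dnmt3b Apoe, Klc4 and Asb1 (r = 0.944, 0.943 and 0.916). For Mbd1 they were Actn2, Platr5 and Suz12 (r = 0.987, 0.980 and 0.965), and for the second Mbd2 probe Pou3f1, Tm2d2 and Ppp1r14b (r = 0.971, 0.957 and 0.951). For Mbd3 they were Lasp1, Ttc25 and Gltp (r = 0.961, 0.958 and 0.955), and for Mbd4 Gcc2, Selenos and Agrn (r = 0.956, 0.943 and 0.942). The first Dnmt1 probe had 41 probes above r = 0.9, Mbd1 had 54, Mbd3 32, the second Mbd2 probe 24, Dnmt3b and Mbd4 8 each, and Dnmt3a 3. Mbd1 stood out on replicate 6 alone, at 2.08, so that array weighs heavily in its correlations. With 8 arrays that share their dyes and spread, the highest of so many correlations is a description of these arrays only.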

How the data were processed

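Per the labels' protocols, 1 µg of total RNA per channel was labelled by Genisphere's 3DNA method and hybridised on 8 two-colour arrays. The authors deposited a log2 ratio for each probe on each array. How they scanned, background-corrected and normalized the arrays, and the centring and direction of the ratios, is not given in the sources used here. Below a ratio of 0.1, 100% of values fell on steps of 0.001 in the ratio, apart from a constant added on the log2 scale to each array (tolerance 0.0011). Values of exactly 0 (2565 to 5200 per array) and each array's highest value (108 to 464 probes), which equals that constant plus the log2 of 100000, were treated as missing. Array medians, -0.435 to 0.516 as deposited (-0.375, -0.435, -0.324, -0.331, 0.313, 0.229, 0.023 and 0.516 for replicates 1 to 8), were subtracted. Depth does not apply, and the number of arrays limits the precision.

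Probes were fitted with limma 3.58.1 (lmFit, eBayes; R 4.3.3) with a shared and a turning coefficient, and the fit was tested on simulated data. Replicate numbers differ between the orientations, but 3 pairs of array codes match (a3 with b3, a5 with b5, a1r with b1r). What a matching code means is not stated. Within these pairs the deviations from the orientation means correlated at 0.014, -0.016 and 0.044 over probes, and the fit had no pairing. Symbols came from the platform annotation, updated by Entrez number through the GRCm38.p6 table (15957 matched). Of all probes 16635 had 1 symbol, 113 several and 4834 none. The members and lists were chosen with earlier results of these data known. Every member probe is named. In each related list the genes with the 2 largest shared and the 2 largest turning parts are named, plus those that passed. Further genes (NuRD subunits, untested genes) were named after their values were seen. The 3 most alike named genes per member are given. Alternatives changed centring, scaling, missing values, the filter, the fit and the arrays used.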

Additional observations from a re-analysis of the deposited data

How the results depend on the processing

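No member probe passed in either part under any of 19 alternatives, and the first Dnmt1 probe and Mbd3 stayed positive in the shared part, at 0.71 to 1.08 and 0.53 to 0.73. Their unadjusted limma p did not stay under 0.05. Without the r arrays it was 0.0816 for the first Dnmt1 probe and 0.258 for Mbd3. For Mbd3 it was also 0.0742 with the values as deposited and 0.0901 without replicate 6. Of 318 values of single member probes under an alternative, 292 kept their sign and 26 did not. An alternative chosen after seeing the data took the array code number as a random block (estimated correlation 0.009). It left 243 probes passing in the turning part and 0 in the shared part, and moved no member value by more than 0.01. With the values as deposited, all probes had a median turning part of 0.425, against 0.106 after centring. The turning parts were then 0.25 for the first Dnmt1 probe, 0.17 for Dnmt3b, 0.17 and 0.09 for the Mbd2 probes and 0.17 for Mbd3. With exact 0 kept as a value they were 0.18, 0.10, 0.06, 0.01 and 0.10. Without the r arrays (replicates 3, 4 and 8), Mbd4 read 0.36 in the shared part and the first Dnmt1 probe 0.14 in the turning part. When 1 array at a time was left out, the shared part ran from -0.22 to 0.27 for Mbd1 and from -0.32 to 0.15 for Mbd4. The turning part then ran from -0.30 to 0.09 for the first Dnmt1 probe, -0.20 to 0.74 for Dnmt3a, -0.93 to 0.31 for Dnmt3b and -0.13 to 0.35 for Mbd1. The causes were not tested. Over all probes, 239 passed in the turning part, 118 positive and 121 negative, against 417 as deposited, 312 positive and 105 negative, 73 without the r arrays and 152 to 214 without single arrays, the lowest without replicate 8 (156 without replicate 4). In the shared part 1 probe passed with each array's highest value kept, and 0 otherwise. The second Dnmt1 probe and the first Mbd2 probe could not be fitted where too few of their arrays remained.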
